A study of Mus musculus with 9 samples.

Results

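The 35 genes described here encode enzymes of cholesterol and fatty acid synthesis and the proteins that set their activity. They were taken as a named list of the pathway: 18 genes of the sterol branch from acetyl-CoA to cholesterol, 12 of the fatty acid branch, and 5 that regulate both or carry sterol. The list was chosen with earlier results of these data known, so counts over it are a description and no test of the set. All 35 were read by probes well above background on all 9 arrays, and each was among the 21734 genes tested. RNA levels in the whole stomach of mice killed at birth were read on Agilent arrays labelled with Cy3 (1 colour), 1 array per mouse. The knockout group (KO 1 to KO 5) has the genotype C/EBPbeta KO and the wild-type group (WT 1 to WT 4) the genotype WT, and no further treatment is named for either. The missing protein, C/EBPβ, is a DNA-binding factor of the leucine zipper type and the product of Cebpb. The sources used here give neither the strain, nor the part of the gene removed, nor whether the loss was limited to a cell type, and the sample source field calls the mice old where the treatment protocol has them killed at birth.

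Cholesterol synthesis joins acetyl-CoA units into mevalonate, turns this into farnesyl diphosphate and squalene, closes squalene into lanosterol and trims lanosterol to cholesterol. Fatty acid synthesis carboxylates acetyl-CoA to malonyl-CoA, builds palmitate from it, and then lengthens and desaturates the chain. Both are driven by the SREBP transcription factors, which SCAP escorts out of the endoplasmic reticulum when sterols are low and which INSIG proteins hold back. C/EBPβ is best known in lipid biology for its part in fat cell differentiation, and the stratified epithelium of the rodent forestomach, like skin, uses sterols and long-chain lipids in its cornified layer.

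Levels are log2 of the processed signal minus the 75th percentile of that signal on the same array, so 0 is the array's 75th percentile. A difference is the knockout mean minus the wild-type mean on this scale, its SE is limma's moderated standard error, and a gene was called changed when limma's Benjamini-Hochberg adjusted p over all genes was below 0.05. Cebpb itself lay at 3.71, 3.21, 3.28 and 3.00 on WT 1 to WT 4 and at −2.74, −2.87, −1.57, −2.04 and −1.68 on KO 1 to KO 5, so every array carried the signal of its genotype label (limma adjusted p = 0.000123). WT 4 had the lowest 75th percentile of signal (221) and KO 3 the highest (472). WT 4 stood apart from the other arrays: across genes its median correlation with the other wild-type arrays was 0.950, against 0.973 to 0.986 for every other array with its own group. The mean of the squamous epithelium markers lay 1.52 log2 units below the wild-type mean on WT 4, that of the proliferation markers 0.99 below, and that of the liver markers 1.59 above. The arrays came from 4 slides: KO 4, KO 5, WT 3 and WT 4 shared slide 1, KO 2, WT 1 and WT 2 shared slide 4, and KO 1 and KO 3 lay on a slide each. Y-linked signal was missing on KO 2, KO 4 and KO 5 and present on every wild-type array. Differences are therefore given with and without WT 4, and what slide and sex contribute was not tested apart from the values given beside the results.

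In knockout stomachs 26 of the 35 genes lay lower and 9 higher than in wild type, where 49.1% of all genes lay lower, and none was called changed. Over all genes 0.207% were called, 45 of 21734, and 0.0782% were called lower. Of the 35 genes, 8 had an unadjusted limma p below 0.05, all lower in the knockout: Acat2, Mvk, Pmvk and Mvd of the sterol branch and Acaca, Elovl1, Elovl6 and Scd1 of the fatty acid branch. That is 22.9% of the list, where 8.73% of all genes passed that p and 3.68% were lower at it. The smallest adjusted p was 0.409 (limma, Pmvk). The median difference was −0.10 in the sterol branch, −0.27 in the fatty acid branch and −0.25 among the 5 regulators, while the median over all genes was 0.0049. Leaving out 1 array at a time, the fatty acid median was closest to 0 without KO 2 (−0.159) and without WT 2 (−0.175), and the sterol median was −0.0583 without WT 1, −0.0318 without WT 2, −0.0622 without WT 3 and −0.303 without WT 4. Leaving out WT 1, WT 2 or WT 3 left 4, 3 and 3 genes lower at an unadjusted p below 0.05. The share of all genes lower at that p was not set beside these counts, so whether they differ from it is not shown. Without WT 4, 29 of the 35 genes lay lower and 14 were lower at an unadjusted p below 0.05 (40.0%, against 8.21% of all genes), and still none was called (0.755% of all genes were), with a smallest limma adjusted p of 0.0546 for Elovl6. WT 4 was low for most of the 35 genes, so leaving it out raises these counts by itself.

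**Figure D1:**
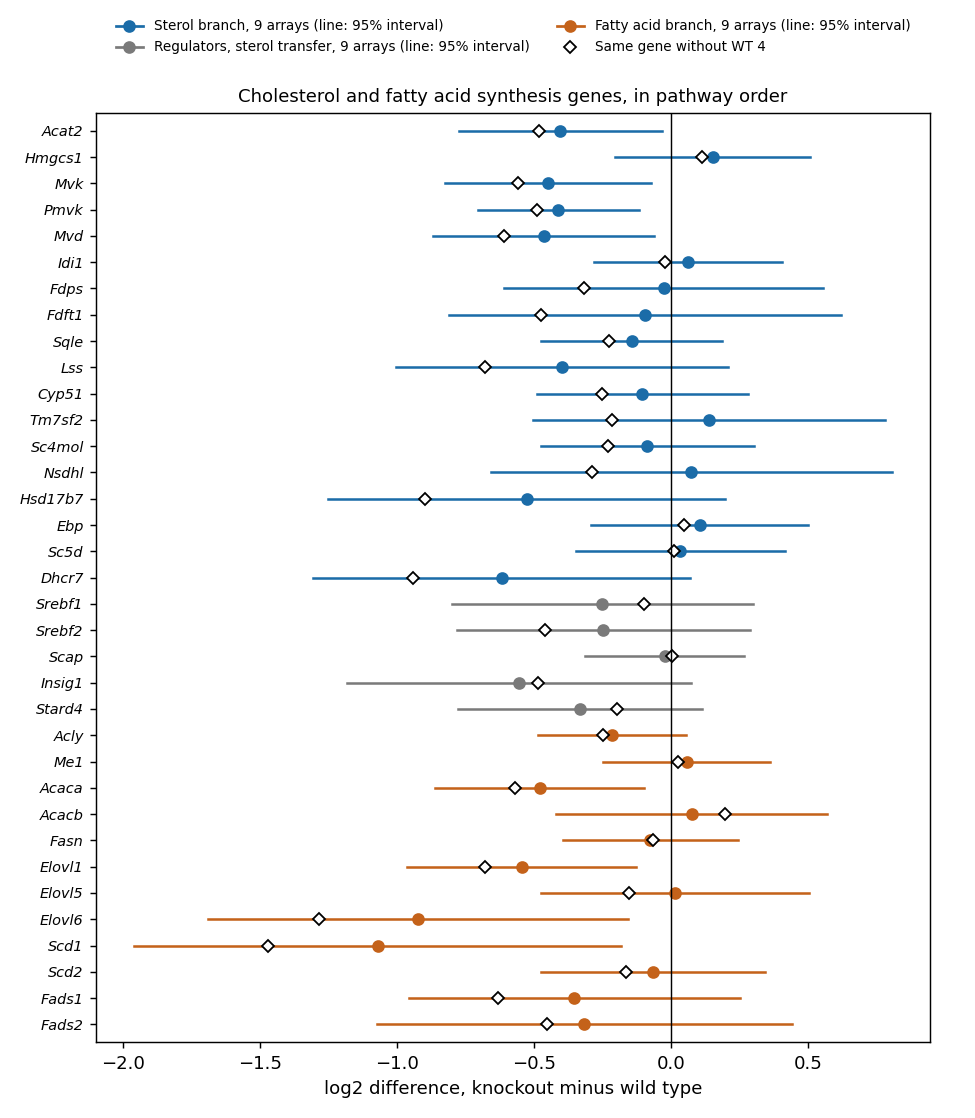
Difference between knockout and wild type for the 35 genes in pathway order, on the log2 scale (x axis). Filled points use all 9 arrays and lines are limma's 95% intervals; open diamonds leave out WT 4. The intervals of 8 genes lie wholly below 0, and Scd1 and Elovl6 have the largest differences, −1.07 and −0.92.

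Promoter sequences were read for the 28 of the 35 genes that RefSeq's table (build GRCm38.p6) covers, as 36 windows of 250 bases before to 50 bases after a start site, and compared with all 32851 windows of the table. Both strands were searched for letters only, so a match is a description of the sequence and not a binding site. The sterol regulatory element TCACNCCAC was found in Hmgcs1 alone, 1 of 28 genes, and in 1.24% of all windows. The NF-Y box CCAAT was in 24 of the 36 windows (66.7%, against 37.4% of all) and in 23 of the 28 genes. The Sp1 box GGGCGG was in 72.2% of the windows against 35.7% and the E-box CACGTG in 19.4% against 7.15%. Counted by gene and set against the 12140 tested genes with a window, CCAAT was in 82.1% of the 28 genes against 42.2%, GGGCGG in 78.6% against 63.5% and CACGTG in 21.4% against 11.0%. The C/EBP palindrome TTGCGCAA was in none of the 36 windows and in 0.183% of all, and its looser form TTGCNNAA, which read on the other strand is TTNNGCAA and includes the palindrome, was in 5.56%, in Dhcr7 and Nsdhl, against 10.8% of all. The 6 windows below belong to Hmgcs1, whose level was 111% of wild type, to the 3 consecutive enzymes that lay lower (Mvk, Pmvk and Mvd) and to Dhcr7. Capitals mark TCACNCCAC in Hmgcs1, CCAAT or its reverse ATTGG wherever they occur, and TTGCNNAA in window 1 of Dhcr7. Each is written 5′ to 3′ on the strand of the gene.
Hmgcs1 (chr13:119690101-119690400, plus strand): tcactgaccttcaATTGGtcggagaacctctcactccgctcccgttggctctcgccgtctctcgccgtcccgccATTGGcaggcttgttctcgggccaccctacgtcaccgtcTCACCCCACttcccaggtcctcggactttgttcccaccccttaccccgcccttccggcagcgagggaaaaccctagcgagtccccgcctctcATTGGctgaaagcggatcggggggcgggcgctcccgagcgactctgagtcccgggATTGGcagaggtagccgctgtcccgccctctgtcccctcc
Mvk (chr5:114444019-114444318, plus strand): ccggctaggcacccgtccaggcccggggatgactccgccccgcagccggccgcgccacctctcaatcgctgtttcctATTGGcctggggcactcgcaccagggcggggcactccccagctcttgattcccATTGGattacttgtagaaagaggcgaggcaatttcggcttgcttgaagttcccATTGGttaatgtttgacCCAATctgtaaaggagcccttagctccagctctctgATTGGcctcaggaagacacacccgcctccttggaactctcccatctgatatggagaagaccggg
Pmvk, window 1 (chr3:89454291-89454590, plus strand): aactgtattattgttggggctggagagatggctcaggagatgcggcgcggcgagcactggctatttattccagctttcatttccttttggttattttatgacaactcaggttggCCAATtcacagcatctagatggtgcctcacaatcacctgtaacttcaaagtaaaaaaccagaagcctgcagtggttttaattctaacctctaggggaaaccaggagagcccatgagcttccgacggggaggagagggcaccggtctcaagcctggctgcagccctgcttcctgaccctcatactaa
Mvd (chr8:122443373-122443672, minus strand): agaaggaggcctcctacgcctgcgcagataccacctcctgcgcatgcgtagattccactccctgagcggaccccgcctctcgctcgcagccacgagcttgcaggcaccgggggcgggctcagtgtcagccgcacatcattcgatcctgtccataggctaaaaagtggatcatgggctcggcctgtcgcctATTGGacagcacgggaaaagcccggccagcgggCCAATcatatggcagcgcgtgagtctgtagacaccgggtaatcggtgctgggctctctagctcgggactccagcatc
Dhcr7, window 1 (chr7:143822917-143823216, plus strand): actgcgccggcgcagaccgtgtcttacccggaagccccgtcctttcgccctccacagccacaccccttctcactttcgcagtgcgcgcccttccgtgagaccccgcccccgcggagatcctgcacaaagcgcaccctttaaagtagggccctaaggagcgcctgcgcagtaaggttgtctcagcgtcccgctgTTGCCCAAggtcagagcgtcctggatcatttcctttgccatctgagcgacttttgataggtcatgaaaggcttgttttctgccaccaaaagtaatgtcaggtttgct
Dhcr7, window 3 (chr7:143829964-143830263, plus strand): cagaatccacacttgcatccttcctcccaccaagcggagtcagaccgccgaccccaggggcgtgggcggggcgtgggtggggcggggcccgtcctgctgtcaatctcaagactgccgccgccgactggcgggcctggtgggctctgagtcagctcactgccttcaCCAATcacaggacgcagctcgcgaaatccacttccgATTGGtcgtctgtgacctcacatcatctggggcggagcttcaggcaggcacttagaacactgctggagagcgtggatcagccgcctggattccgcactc

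Hmgcs1 holds the sterol element and 4 CCAAT boxes, and Mvk 5 CCAAT boxes without that element. Mvd and window 3 of Dhcr7 hold 2 CCAAT boxes each, and window 1 of Pmvk, the farther upstream of 2, holds 1. Window 2 of Pmvk and window 2 of Dhcr7, which are not printed, hold no CCAAT box, nor does window 1 of Dhcr7. In window 1 of Dhcr7 the C/EBP letters are TTGCCCAA.

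The early sterol enzymes, from acetyl-CoA to farnesyl diphosphate, held 4 of the 8 genes at an unadjusted p below 0.05. Pmvk, phosphomevalonate kinase, lay at 4.63, 4.69, 4.65 and 4.34 on WT 1 to WT 4 and at 4.19, 4.19, 4.08, 4.10 and 4.26 on KO 1 to KO 5. Every knockout array was below every wild-type array, and WT 4 was the wild-type array nearest to them. The knockout level was 75.3% of wild type, a difference of −0.41 ± 0.13 (SE), with an exact permutation p of 0.00794, the smallest that 126 splits of 9 arrays into 5 and 4 can give. Groups that do not overlap were found for 3.39% of all genes, 1.08% with the knockout lower, and for 2 of the 35 genes here, Pmvk and Acly. Its probe lies on chromosome 3, 89272867 to 89272926 (mm9), and a second probe of Pmvk gave −0.42.

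Mvk, mevalonate kinase, which acts one step before Pmvk, lay at 4.82, 4.96, 4.73 and 4.40 on WT 1 to WT 4 and at 4.42, 4.33, 4.51, 4.13 and 4.01 on KO 1 to KO 5. WT 1, WT 2 and WT 3 were above all knockout arrays, and WT 4 fell among them. The difference was −0.45 ± 0.17 (SE), or 73.3% of wild type, and a second Mvk probe gave −0.50. Mvd, mevalonate diphosphate decarboxylase, the next enzyme after Pmvk, lay at 1.99, 2.39, 2.03 and 1.55 on WT 1 to WT 4 and at 1.56, 1.70, 1.31, 1.49 and 1.58 on KO 1 to KO 5. Again the first 3 wild-type arrays were above every knockout array and WT 4 was within their range. The difference was −0.46 ± 0.18 (SE), or 72.5% of wild type. Acat2, the cytosolic thiolase that joins 2 acetyl-CoA units, lay at 0.39, 0.75, 0.62 and 0.28 in wild type and at 0.38, 0.20, 0.05, 0.08 and −0.20 in knockout, in array order. Only KO 1 reached into the wild-type range. Acat2 differed by −0.40 ± 0.17 (SE), or 75.6% of wild type. The limma adjusted p was 0.488 for Mvk, 0.506 for Mvd and 0.527 for Acat2. The exact permutation p, unadjusted, was 0.0397 for Mvk and 0.0318 for both Mvd and Acat2. Without WT 4 the differences were −0.49 for Pmvk, −0.56 for Mvk, −0.61 for Mvd and −0.48 for Acat2, with limma adjusted p from 0.111 to 0.216. In all 4 genes every knockout array was below WT 1 to WT 3, but in Acat2 KO 1 (0.3845) and WT 1 (0.3856) were all but equal.

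The probes of Mvk, Mvd and Acat2 lie on chromosome 5, 114910540 to 114910599, on chromosome 8, 124957750 to 124957809, and on chromosome 17, 13136482 to 13136541 (all mm9); which part of each transcript they read was not analysed here. Hmgcs1, the synthase that makes HMG-CoA for mevalonate, differed by 0.15 ± 0.16 (SE), Idi1, which isomerises isopentenyl diphosphate, by 0.06 ± 0.15, and Fdps, which makes farnesyl diphosphate, by −0.03 ± 0.26, a sign that turned under median scaling and normexp background correction. Fdps lay at 5.30, 5.39 and 5.30 on WT 1 to WT 3, at 4.17 on WT 4, and from 4.79 to 5.38 in knockout, so WT 4 was the lowest array. Without WT 4 Fdps differed by −0.32 ± 0.16, or 80.3% of wild type (limma adjusted p = 0.357), Idi1 by −0.02 ± 0.15 and Hmgcs1 by 0.12 ± 0.17. Over all arrays the 3 kinase and decarboxylase genes that act in a row (Mvk, Pmvk and Mvd) lay between 72.5% and 75.3% of wild type, while Hmgcs1 before them lay at 111% and Idi1 after them at 104%. Without WT 4 these were 65.6% to 71.3% for the 3 genes, 108% for Hmgcs1 and 98.5% for Idi1. The 95% intervals of Hmgcs1 (−0.20 to 0.51) and of Mvk (−0.82 to −0.07) overlap, and the difference between the genes was not tested.

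**Figure D2:**
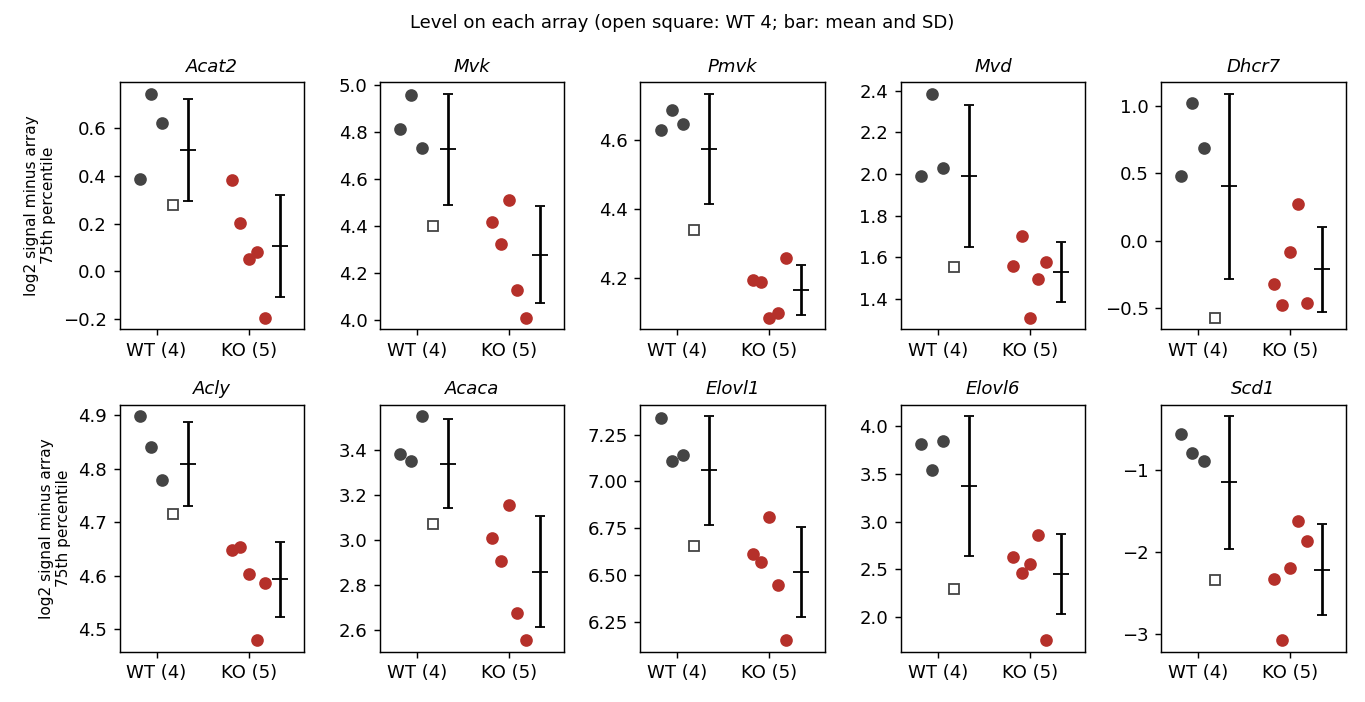
Level of 10 genes on each array (log2 signal minus the array's 75th percentile), wild type at left (4 arrays) and knockout at right (5 arrays) in each panel. Bars are the mean and SD, and the open square is WT 4. In Pmvk and Acly the groups do not overlap. In Acat2, Mvk, Mvd, Acaca, Elovl1, Elovl6 and Scd1 WT 4 lies within the knockout range, and in Dhcr7 it lies below all knockout arrays.

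From squalene to lanosterol, Fdft1 (squalene synthase) differed by −0.09 ± 0.32 (SE), Sqle (squalene epoxidase) by −0.14 ± 0.15 and Lss (lanosterol synthase) by −0.40 ± 0.27. WT 4 moved the values of Fdft1 and Lss. Fdft1 lay at 2.57, 2.94 and 2.85 on WT 1 to WT 3 but at 1.26 on WT 4, below all 5 knockout arrays, which ran from 2.00 to 2.50. Without WT 4 the difference was −0.48 ± 0.17 for Fdft1, −0.68 ± 0.19 for Lss and −0.23 ± 0.14 for Sqle, and in Fdft1 and Lss every knockout array was below the other 3 wild-type arrays. Neither Fdft1 nor Lss passed limma's test then (adjusted p = 0.218 and 0.145).

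Of the 8 enzymes from lanosterol to cholesterol, 4 lay lower and 4 higher. Dhcr7, the reductase that makes cholesterol from 7-dehydrocholesterol, lay at 0.48, 1.02, 0.69 and −0.57 on WT 1 to WT 4 and at −0.32, −0.47, −0.09, 0.27 and −0.46 on KO 1 to KO 5. WT 1 to WT 3 were above all knockout arrays, and WT 4 was the lowest array of all. The difference was −0.62 ± 0.31 (SE), or 65.2% of wild type (limma adjusted p = 0.625; exact permutation p = 0.119). Without WT 4 it was −0.94 ± 0.21, or 52.1% (limma adjusted p = 0.0886). Hsd17b7, a 3-ketosteroid reductase of the same stretch, differed by −0.52 ± 0.32 with WT 4 and by −0.90 ± 0.19 without it (limma adjusted p = 0.0761), and its 3 probes gave −0.51, −0.78 and −0.52 over all arrays.

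The other 6 late enzymes had differences of −0.10 to 0.14. Cyp51, which removes a methyl group from lanosterol, differed by −0.10 ± 0.17 (SE) and the methyl sterol oxidase Sc4mol, now named Msmo1, by −0.09 ± 0.17. Tm7sf2, a sterol reductase, differed by 0.14 ± 0.29, Nsdhl, a sterol dehydrogenase, by 0.07 ± 0.33, the isomerase Ebp by 0.10 ± 0.18 and the desaturase Sc5d by 0.04 ± 0.17. Tm7sf2 lay at 2.40, 2.23 and 2.38 on WT 1 to WT 3 and at 0.92 on WT 4, with the knockout arrays between 2.04 and 2.21. WT 4 was also the lowest of the 9 arrays for Cyp51 and Sc4mol. Without WT 4 Tm7sf2 and Nsdhl turned to −0.22 and −0.29, Cyp51 and Sc4mol differed by −0.25 ± 0.14 and −0.23 ± 0.15, and Ebp and Sc5d by 0.05 and 0.01. The sign of Sc5d also turned under quantile normalization.

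**Figure D3:**
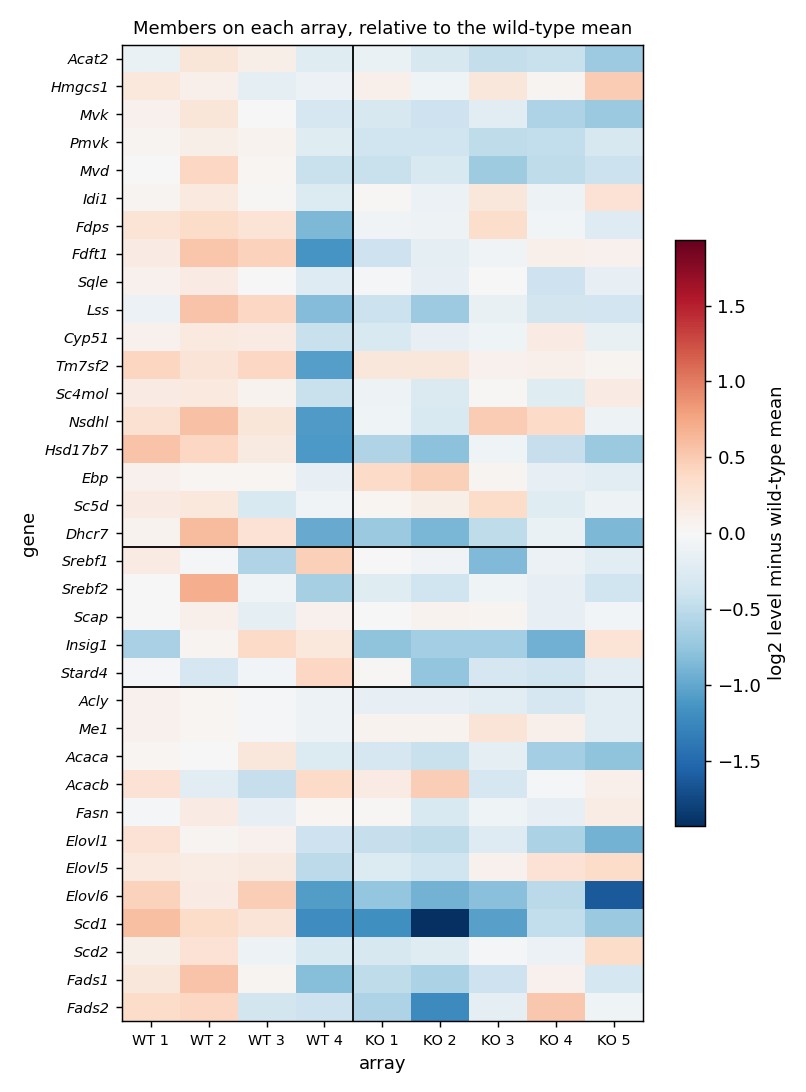
Each of the 35 genes (rows, in pathway order, black lines between sterol branch, regulators and fatty acid branch) on each array (columns, wild type left of the line), as log2 level minus the wild-type mean. WT 4 is blue across most sterol and fatty acid rows although it is wild type; it was the lowest wild-type array for 27 of the 35 genes.

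WT 4 was the lowest of the 4 wild-type arrays for 27 of the 35 genes, where this held for 35.6% of all genes, and it lay below all 8 other arrays for 13 of the 35. The mean of the 18 sterol genes, relative to the wild-type mean of each gene, was 0.14, 0.29 and 0.12 on WT 1 to WT 3, −0.56 on WT 4, and −0.18, −0.24, −0.05, −0.19 and −0.22 on KO 1 to KO 5. The knockout arrays thus lay between WT 4 and the other wild-type arrays, and their SD (0.07, n = 5) was smaller than that of the wild-type arrays (0.38, n = 4). For the 12 fatty acid genes the mean was 0.22, 0.16 and 0.01 on WT 1 to WT 3, −0.40 on WT 4, and −0.35, −0.51, −0.27, −0.16 and −0.33 on KO 1 to KO 5. Without WT 4 the sterol median difference went from −0.10 to −0.30 and 8 of the 18 sterol genes were lower at an unadjusted p below 0.05, in place of 4. All knockout arrays lay below WT 1 to WT 3 for 15 of the 35 genes (42.9%, against 6.42% of all genes). Acat2 is among these with KO 1 and WT 1 all but equal. Since WT 4 was low for most of the 35 genes, leaving it out raises such counts by itself. The counts without WT 4 are therefore a description and no separate support.

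The medians also differed between slides. On slide 4 (KO 2 against WT 1 and WT 2) the median difference was −0.43 for the sterol branch, −0.51 for the fatty acid branch and −0.37 for the regulators, with no test, since 1 array stands for the knockout. On slide 1 (KO 4 and KO 5 against WT 3 and WT 4) the medians were −0.05, 0.03 and −0.11 in the same order, and without WT 4 they were −0.33, −0.10 and −0.21. KO 1 and KO 3 are each alone on a slide, so with slide as a block they add nothing to the genotype difference. With slide as a block, 25 of the 35 genes lay lower and 4 of them at an unadjusted p below 0.05, and 5 of all genes were called. With slide as a block and without WT 4, 29 lay lower and 11 of them at that p. On the 6 arrays with Y-linked signal (KO 1, KO 3 and the wild type) 26 of the 35 genes lay lower and 0 at an unadjusted p below 0.05, and after fitting that level as a covariate on all arrays 26 lay lower and 3 at that p. For these slide and Y-linked fits the share of all genes lower at that p was not set beside the counts. Whether the counts differ from that share is therefore not shown. The median differences on those 6 arrays were −0.11, −0.22 and −0.16 for the sterol, fatty acid and regulator genes.

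In the fatty acid branch 9 of the 12 genes lay lower, and the 3 with the largest differences, Scd1, Elovl6 and Elovl1, act on the chain after palmitate. Scd1, the stearoyl-CoA desaturase that makes oleate and palmitoleate, lay at −0.57, −0.79, −0.89 and −2.35 on WT 1 to WT 4 and at −2.33, −3.08, −2.20, −1.62 and −1.86 on KO 1 to KO 5. All knockout arrays were below WT 1 to WT 3, and WT 4 lay below 4 of the 5 knockout arrays. The difference was −1.07 ± 0.40 (SE), or 47.7% of wild type (limma adjusted p = 0.481; exact permutation p = 0.0794), and −1.47 ± 0.30, or 36.2%, without WT 4 (limma adjusted p = 0.0717). Its close relative Scd2 differed by −0.07 ± 0.18, a sign that turned under median scaling, and by −0.17 ± 0.18 without WT 4, and its levels overlapped between the groups. The probes of both genes lie on chromosome 19, that of Scd1 at 44469387 to 44469446 and that of Scd2 at 44381024 to 44381083 (mm9).

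Elovl6, which elongates palmitate to stearate, lay at 3.82, 3.54, 3.85 and 2.29 on WT 1 to WT 4 and at 2.63, 2.46, 2.56, 2.86 and 1.75 on KO 1 to KO 5. As with Scd1, only WT 4 was within the knockout range. The difference was −0.92 ± 0.34 (SE), or 52.8% of wild type (limma adjusted p = 0.482; exact permutation p = 0.0714), and −1.28 ± 0.24, or 41.1%, without WT 4. Elovl1, which elongates saturated very long chains for ceramides of the skin barrier, lay at 7.34, 7.11, 7.14 and 6.65 in wild type and at 6.61, 6.57, 6.81, 6.45 and 6.15 in knockout, in array order. WT 1 to WT 3 were above every knockout array and WT 4 was below KO 3 alone. Elovl1 differed by −0.54 ± 0.19 (SE), or 68.6% of wild type, and its second probe by −0.67 (limma adjusted p = 0.439 for the first; exact permutation p = 0.0318). Without WT 4 it differed by −0.68 ± 0.17 (limma adjusted p = 0.111). The elongase Elovl5, which works on polyunsaturated chains, differed by 0.02 ± 0.22, a sign that turned under quantile normalization and under normexp background correction. Elovl5 lay at 1.78, 1.74 and 1.77 on WT 1 to WT 3 and at 1.09 on WT 4, below all knockout arrays, and without WT 4 it differed by −0.15 ± 0.20. Its sign turned in 10 of the 24 alternatives.

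Acaca, the acetyl-CoA carboxylase that commits carbon to fatty acid synthesis, lay at 3.38, 3.35, 3.55 and 3.07 on WT 1 to WT 4 and at 3.01, 2.90, 3.16, 2.67 and 2.55 on KO 1 to KO 5. KO 3 was the only knockout array above WT 4, and none reached the other wild-type arrays. The difference was −0.48 ± 0.17 (SE), or 71.8% of wild type (limma adjusted p = 0.456; exact permutation p = 0.0318), and the 2 further probes of Acaca that were well above background on all 9 arrays gave −0.34 and −0.69. Without WT 4 the difference was −0.57 ± 0.17 (limma adjusted p = 0.160). Acacb, the carboxylase isoform linked to fatty acid oxidation, differed by 0.08 ± 0.22, and its second probe by −0.07. Fasn, the synthase that builds palmitate, differed by −0.08 ± 0.14, with levels from −1.27 to −0.96 in wild type and from −1.42 to −0.97 in knockout. Without WT 4 Acacb differed by 0.20 ± 0.22 and Fasn by −0.06 ± 0.15.

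Acly, the citrate lyase that supplies cytosolic acetyl-CoA to both branches, lay at 4.90, 4.84, 4.78 and 4.72 on WT 1 to WT 4 and at 4.65, 4.65, 4.60, 4.48 and 4.59 on KO 1 to KO 5. The groups did not overlap, and WT 4 was the wild-type array nearest to the knockout arrays. The difference was −0.22 ± 0.12 (SE), or 86.1% of wild type, while a dimmer second probe of Acly gave −0.55. Acly did not pass limma's test (adjusted p = 0.687), and the exact permutation p was 0.00794, both for the first probe. The SD was 0.08 in wild type (n = 4) and 0.07 in knockout (n = 5). Me1, the malic enzyme that supplies NADPH, differed by 0.06 ± 0.14, and its 3 probes disagreed in sign. Without WT 4 Acly differed by −0.25 ± 0.12 and Me1 by 0.03 ± 0.14. Of the polyunsaturated fatty acid desaturases, Fads1 differed by −0.35 ± 0.27 and Fads2 by −0.32 ± 0.34, and without WT 4 by −0.63 ± 0.19 and −0.45 ± 0.36. A dimmer second probe of Fads2 gave −0.75 over all arrays.

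All 5 regulators lay lower in the knockout, and none had an unadjusted p below 0.05. Srebf2, whose product SREBP-2 drives the sterol genes, lay at 0.74, 1.46, 0.69 and 0.12 on WT 1 to WT 4 and at 0.52, 0.36, 0.67, 0.60 and 0.37 on KO 1 to KO 5. The wild-type arrays spread on both sides of the knockout arrays. Srebf2 differed by −0.25 ± 0.24 (SE), and by −0.46 ± 0.20 without WT 4 (limma adjusted p = 0.298). A dimmer second probe of Srebf2 gave −0.65 over all arrays. Srebf1, whose products drive mainly the fatty acid genes, lay at −1.15, −1.35, −1.88 and −0.85 in wild type and at −1.31, −1.38, −2.16, −1.42 and −1.53 in knockout. WT 4 was the highest array here and KO 3 the lowest, and the groups overlapped. Srebf1 differed by −0.25 ± 0.25, and by −0.10 ± 0.24 without WT 4.

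Insig1, which retains SCAP and is itself a target of SREBP, lay at 0.04, 0.73, 1.04 and 0.88 on WT 1 to WT 4 and at −0.11, 0.02, 0.01, −0.26 and 0.94 on KO 1 to KO 5. Of the knockout arrays 4 were below every wild-type array, and KO 5 was above 3 of them. The difference was −0.55 ± 0.28 (SE), or 68.2% of wild type (limma adjusted p = 0.635; exact permutation p = 0.111). Scap lay between 3.69 and 3.98 in wild type and between 3.71 and 3.94 in knockout, a difference of −0.02 ± 0.13 whose sign turned under median scaling and whose 95% interval ran from −0.31 to 0.27. Stard4, a soluble sterol carrier, lay at 2.16, 1.86, 2.13 and 2.59 in wild type and at 2.20, 1.43, 1.86, 1.80 and 1.98 in knockout. KO 1 and KO 5 lay above WT 2, so the groups overlapped, and WT 4 was the highest array. Stard4 differed by −0.33 ± 0.20, while its dimmer second probe gave 0.17. Without WT 4 the differences were −0.49 ± 0.31 for Insig1, −0.20 ± 0.19 for Stard4 and 0.0050 ± 0.13 for Scap. The mean of the 5 regulators on WT 4 was 0.10 above the wild-type mean, and only Srebf2 of the 5 had its lowest wild-type value there.

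Beyond the 35 genes, 57 others of the pathway were listed and 55 tested; Lcat and Elovl3 were not well above background on enough arrays. Of these 55, 28 lay lower and 27 higher, none was called, and the median difference was −0.0045. At an unadjusted p below 0.05, 5 were higher (Abca1, Abcg1, Nceh1, Acsl3 and Acss2) and 2 lower (Nr1h3 and Gpam), where 5.05% of all genes were higher and 3.68% lower. Nr1h3 encodes the oxysterol receptor LXRα. It lay at −1.58, −1.42, −1.64 and −1.22 on WT 1 to WT 4 and at −2.44, −2.27, −2.00, −2.39 and −1.86 on KO 1 to KO 5. All knockout arrays were below all wild-type arrays, and WT 4 was the highest. Its difference was −0.73 ± 0.17 (SE), or 60.2% of wild type (limma adjusted p = 0.224). The cholesterol exporters Abca1 and Abcg1 are known targets of LXR. They differed by 0.77 ± 0.23 and 0.59 ± 0.21, or 171% and 151% of wild type (limma adjusted p = 0.380 and 0.447). Nceh1, a cholesteryl ester hydrolase, differed by 0.63 ± 0.20, Acsl3, an acyl-CoA synthetase of lipid droplets, by 0.46 ± 0.15, and Acss2, which makes acetyl-CoA from acetate, by 0.36 ± 0.16. Gpam, the first acyltransferase of triglyceride synthesis, differed by −0.51 ± 0.18. Insig2, the paralogue of Insig1, lay from 0.81 to 1.20 in wild type and from 1.24 to 1.44 in knockout, a difference of 0.26 ± 0.14 opposite to that of Insig1.

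Marker levels of the cell types in a newborn stomach are set beside these values, since several differed between the groups or stood apart on WT 4. A bulk sample cannot tell fewer cells of a type from less RNA per cell. The summed linear level of the 12 forestomach squamous markers, in units of each array's 75th percentile, ran from 545 on WT 4 to 1767 in wild type and from 508 to 1289 in knockout, and 8 of the 12 lay lower. All 7 smooth muscle markers lay lower (summed level 1286 to 2062 in wild type, 929 to 1475 in knockout) and all 11 gastric epithelium markers higher (1122 to 1900 and 1473 to 2346), of which Gkn2, a product of surface mucous cells, was called (limma adjusted p = 0.0280). Of 8 proliferation markers 7 lay lower. Their summed level was 26.5 on WT 4, 58.9 to 62.7 on WT 1 to WT 3 and 37.3 to 50.7 in knockout, the same order as in the sterol branch. The mean log2 level of the squamous markers, relative to the wild-type mean, had that order too. It was −1.52 on WT 4, −0.80 to 0.23 in knockout and 0.34 to 0.59 on WT 1 to WT 3. Of 10 adipocyte markers 4 were tested, with summed levels of 11.7 to 38.4 in wild type and 22.7 to 33.2 in knockout; the defining markers Adipoq, Plin1, Cfd, Retn and Lep were not well above background on enough arrays. Of the 4, the lipid droplet gene Cidec was called higher, by 0.96 ± 0.15 (limma adjusted p = 0.0428). The others went both ways and were not called: Cidea differed by −0.93 ± 0.54, Fabp4 by 0.16 ± 0.38 and Lipe by 0.03 ± 0.40. Of 22 alternatives with a test, the Gkn2 call was lost in 13 and the Cidec call in 17, slide as a block among them (limma adjusted p = 0.306 and 0.339). Leaving out 1 array at a time ended the Gkn2 call for 6 of the 9 arrays (KO 1, KO 3, KO 4, WT 1, WT 2 and WT 3; limma adjusted p over all 9 from 0.00868 to 0.113) and the Cidec call for every array but WT 4 (0.0336 to 0.197). Liver markers ran from 13.1 to 43.7 in wild type, highest on WT 4, and from 15.3 to 48.3 in knockout, highest on KO 2. Pancreas markers ran from 1.26 to 3.48 in wild type and from 1.78 to 2.09 in knockout. The part of these cell types in the levels of the synthesis genes was not tested.

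**Figure D4:**
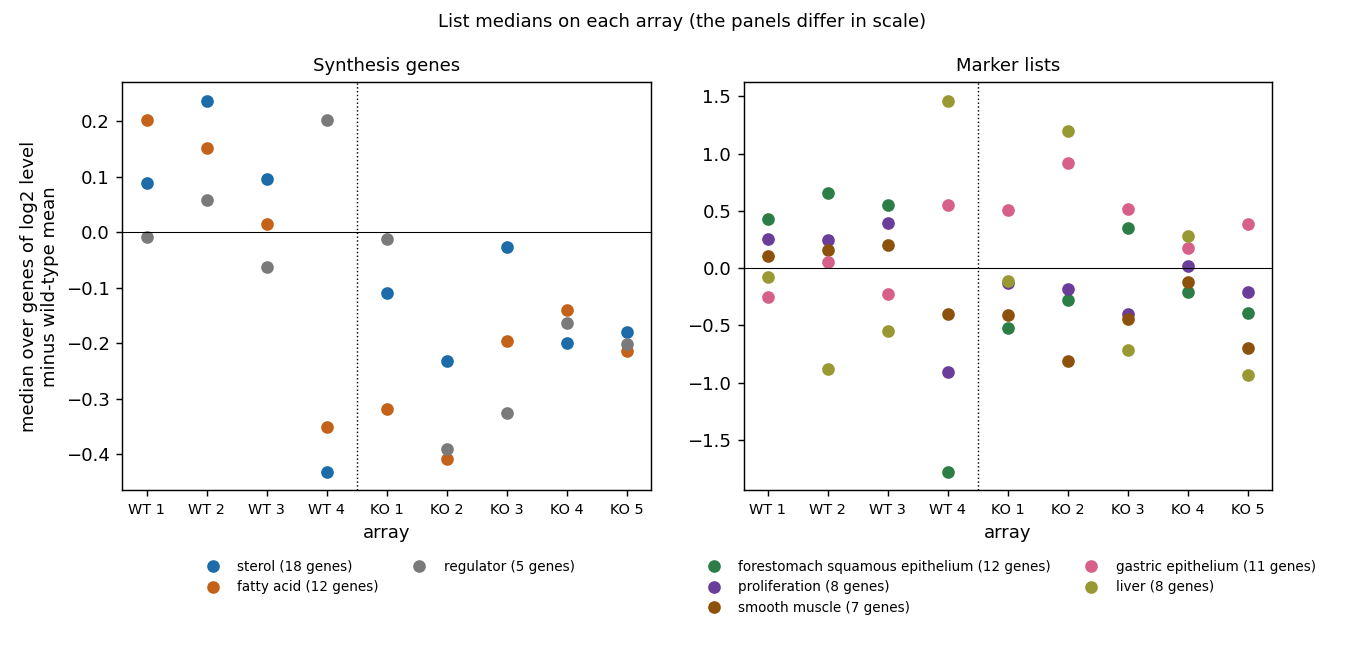
Median over the genes of each list of log2 level minus the gene's wild-type mean, on each array (WT 1 to WT 4 left of the dotted line). Left, the sterol, fatty acid and regulator genes; right, marker lists, on a wider scale. On WT 4 the sterol median (−0.43), the squamous median (−1.78) and the proliferation median (−0.91) lie below those of every other array.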

How the data were processed

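Total RNA of 9 newborn stomachs (5 knockout, 4 wild type, 1 array each) was labelled with Cy3 after oligo dT priming, per the labels' protocols. The deposited scanner files hold spot intensity on a linear scale, made with Agilent Feature Extraction 10.5.1.1 and protocol GE1_107_Sep09 per the file headers, whereas the submitters' processing notes name version 9.1. Per the file headers the processed signal had its background subtracted with no normalization across arrays. Flags of other kinds, namely well above background, control and outlier, were also taken from the deposited files. The authors' series matrix holds log2 values whose differences between arrays followed the scanner values (median absolute deviation 2.85e-07), with all 55821 identifiers matched. What it was centred on stays unknown, and the medians of its columns, in the order KO 1 to KO 5, were 0.0436, 0.217, −0.124, 0.0347, −0.137 and, for the 4 wild-type arrays in order, −0.279, −0.161, 0.224, 0.381.

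Control spots (3671 of 62976) and outlier flags were left out and spots of a probe averaged (55681 probes, 21 of them missing on some array). Of these, 26762 were named through RefSeq GRCm38.p6, which renamed 2878. The filter asked for a signal well above background on 4 or more of the 9 arrays (30202 probes kept), and the probe with the highest mean stood for its gene. Of 13 genes of the list with several kept probes, 3 had probes of opposed sign (Acacb, Me1 and Stard4). No spot was saturated, and 50.9% to 57.2% of spots were well above background. The number of arrays limits the precision. The genotypes were compared by limma 3.58.1 in R 4.3.3 (lmFit and eBayes, two-sided), with Benjamini-Hochberg adjustment over 21734 genes, and single genes also with exact two-sided permutation tests. These were run for all 35 genes and are unadjusted. The fit was tested on simulated data. Nothing states that the mice came from separate litters, so p-values measure the spread between these mice.

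Replicate numbers do not pair the arrays (the correlations of same-numbered arrays ran from −0.482 to 0.153). Alternatives were array scaling, quantile normalization, normexp (offset 50), the series matrix, the filter, the mean over probes, each array left out, slide, replicate number and Y-linked signal. The members and lists were chosen with earlier results of these data known. Per-array values are given for the 5 sterol and 5 fatty acid genes with the smallest limma p and for the regulators; those of Fdft1, Fdps, Tm7sf2, Elovl5 and Nr1h3 were chosen after their values were seen. Listed genes outside the 35 have values where their unadjusted p was below 0.05, and Insig2 was added after its values were seen.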

Additional observations from a re-analysis of the deposited data

Results flagged for a closer look

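In 6 of the 70 groups checked (35 genes in each genotype), 1 array lay apart from the others of its group by Dixon's criterion at 95%, and chance flags about 1 in 20 groups. The values are log2 levels relative to the array's 75th percentile. In 4 of the 6 the array was WT 4, the lowest wild-type array, at 4.34 for Pmvk, 4.17 for Fdps, 0.919 for Tm7sf2 and 1.09 for Elovl5. For Srebf1 the knockout array KO 3 was lowest at −2.16. For Insig1 the knockout array KO 5 was highest at 0.937.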

How the results depend on the processing

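None of the 35 genes was called under any alternative run with a test, and the sterol and regulator medians kept their sign under all of them. All genes called numbered 45, and 22 with no filter on dim probes, 5 with slide as a block, 2 within slide 1, 4 on arrays with Y-linked signal and 4 with the Y-linked level as covariate. The count of the 35 genes lower at an unadjusted p below 0.05 was 8, and 2 under median scaling, 4 with slide as a block, 0 within slide 1, 0 on arrays with Y-linked signal and 3 with that level as covariate, for which the share of all genes is not given. Replicate numbers as a block gave 2 such genes and 4 of all genes called, and KO 5 has no partner of its number. For this fit, and for each array left out in turn other than WT 4, the share of all genes is not given either. Leaving out each array in turn gave 3 to 14 such genes, 11 to 164 of all genes called and medians of −0.303 to −0.0318 (sterol), −0.348 to −0.159 (fatty acid) and −0.349 to −0.197 (regulators); the highest counts and the lowest sterol and fatty acid medians came from leaving out WT 4. Within slide 1 the fatty acid median reversed to 0.0285 and the regulator median was −0.105. Within slide 4 the sterol, regulator and fatty acid medians were −0.431, −0.365 and −0.505. Without WT 4 and with slide as a block, chosen after seeing the data, the sterol and regulator medians were −0.410 and −0.413, and 20 of all genes were called. Without WT 4 within slide 1, also chosen then, the sterol and fatty acid medians were −0.333 and −0.104. The cause of these shifts was not tested. With 5 and 4 arrays, none of the differences of the 35 genes passed the adjusted test, which does not show that the levels are alike.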
